A study of Arabidopsis thaliana with 9 samples.

Results

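ALB3, cpSRP43, cpSRP54, cpFTSY and LTD form the route that carries light-harvesting antenna proteins through the chloroplast stroma into the thylakoid membrane. They were taken by name, as 5 of the 37328 loci in the authors' deposited table. All 5 were tested in both comparisons. RNA sequencing had been run on whole Arabidopsis thaliana seedlings of 3 genotypes in the Col-0 background. RPGE2-OX overexpresses RPGE2, glk12 carries mutations in both GLK1 and GLK2, and the wild type was the reference for both, with 3 replicates of each and 9 libraries in all. All seedlings had been kept cold at 4 °C as seeds for 3 days and then held for 7 days at 22 °C under unbroken white light (50 µmol per m2 per s). The promoter that drives RPGE2, the number of independent lines and the mutant alleles are not stated in the labels. GLK1 and GLK2, the GOLDEN2-LIKE factors, switch on nuclear genes of photosynthesis.

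Antenna proteins are encoded in the nucleus, imported into the chloroplast and must then cross the aqueous stroma although they are hydrophobic membrane proteins. In the textbook route, LTD receives them at the inner envelope. cpSRP43, a chaperone built of ankyrin repeats and chromodomains, keeps them soluble. cpSRP54, a GTPase, joins cpSRP43 in the chloroplast signal recognition particle. The complex docks on cpFTSY, the thylakoid receptor and a second GTPase, and ALB3 inserts the protein into the membrane. cpSRP54 also works on chloroplast ribosomes and ALB3 inserts other membrane proteins, whereas cpSRP43 is a plant-specific subunit without a counterpart in the cytosolic particle.

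The deposited table gives 1 log2 ratio and 1 q value, a p-value adjusted over all tested genes, for each gene and line over the wild type. It holds no level and no read count, so the depth of the libraries is unknown, no value per seedling sample can be shown and levels cannot be compared between genes. The spread between replicates enters through the q values alone. The labels do not say whether replicates were separate cultures, and that spread may be technical. A gene was called at a q below 0.05, two-sided, as adjusted by the authors. Intervals below are 95% intervals implied by a gene's ratio and the p recovered from its q.

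One of the 5 genes passed in each line, and it was the same gene, cpSRP43. In the authors' deposited table its transcript was 1.86-fold lower in RPGE2-OX than in the wild type, and the fall in glk12 was 1.49-fold. Both ratios share the wild-type libraries, so the calls of cpSRP43 in both lines are not independent. The transcripts of ALB3, cpSRP54, cpFTSY and LTD did not pass in either line. The background is that 6.55% of all tested genes were called in RPGE2-OX and 5.67% in glk12, with 3.98% of tested genes lower in RPGE2-OX and 3.04% lower in glk12. One gene of 5 is too few to set against those shares.

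**Figure D1:**
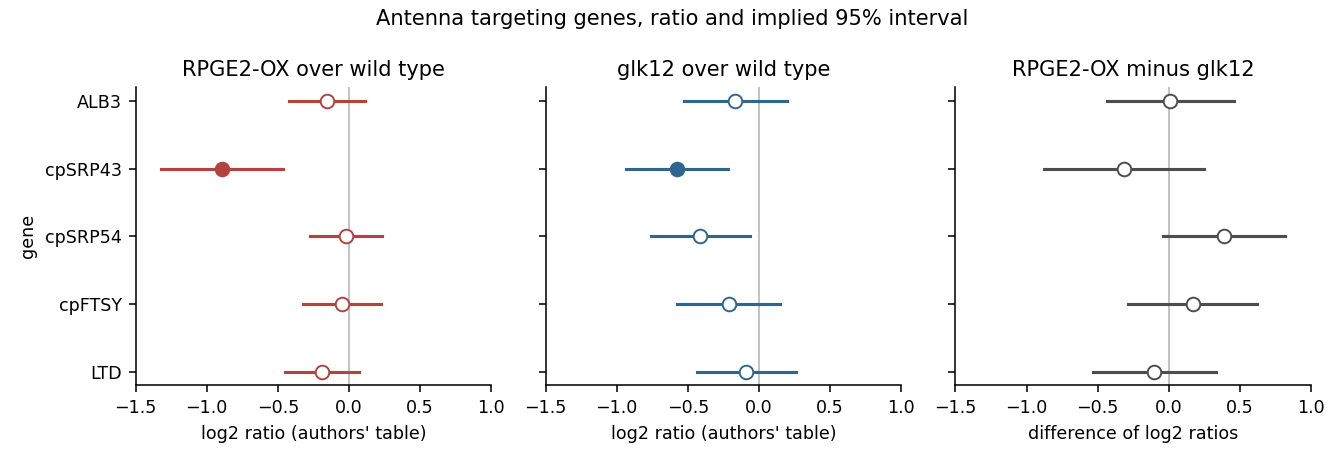
Log2 ratio of each antenna targeting gene in RPGE2-OX over wild type (left), in glk12 over wild type (middle) and the difference between both ratios (right). Dots are values from the deposited table, or computed from them on the right, filled where q is below 0.05, and lines are the implied 95% intervals. cpSRP43 has the only filled dots, at -0.89 in RPGE2-OX and -0.58 in glk12, and every interval of the difference spans 0.

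cpSRP43 (AT2G47450) lies on chromosome 2 at 19472573 to 19474387, plus strand, in the RefSeq annotation of TAIR10.1, with its 1122 coding bases in 1 exon and no overlapping gene. RefSeq and the deposited table also list it under the older symbol CAO, from the mutant name CHAOS. It is not the chlorophyll a oxygenase gene of the same symbol. The deposited log2 ratio was -0.89 in RPGE2-OX at q = 0.0018. That is the lowest q in that comparison, and other genes such as HEMA1 and KAT1 share it. The implied interval puts the transcript at 0.399 to 0.726 of the wild-type level in RPGE2-OX, around a ratio of 0.538, and is at its widest possible there because the p sits at its floor. In glk12 the deposited log2 ratio was -0.58 at q = 0.035, a level of 0.671 of the wild type with an interval of 0.522 to 0.862. The call in glk12 is the weaker of these calls, and it is lost at a q limit of 0.01.

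Set against the other genes of the deposited table, the fall of cpSRP43 was moderate. In RPGE2-OX, 3.36% of the 21576 tested genes with a finite ratio lay below it, and of the 850 called falls with a finite ratio 304 were larger. In glk12, 9.44% of 21709 such genes lay below it, and 626 of 657 called finite falls were larger. Its change in glk12 was thus among the smallest falls that the authors' test passed in that line.

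The 250 bases before the annotated start of cpSRP43 are shown because it is the member that fell. Those of cpSRP54 are shown because its protein is the partner of cpSRP43 and its window alone holds the motif CCAATC. Both are 5′ to 3′ along the gene's strand, from the RefSeq genome TAIR10.1. They lie at chr2:19472323-19472572 (plus strand) and chr5:1063426-1063675 (minus strand). Capitals mark matches to CCAATC, a motif described for GLK1 target promoters, or to AGATTC, a form of the core bound by the GARP family to which GLK1 and GLK2 belong, on either strand.
cpSRP43: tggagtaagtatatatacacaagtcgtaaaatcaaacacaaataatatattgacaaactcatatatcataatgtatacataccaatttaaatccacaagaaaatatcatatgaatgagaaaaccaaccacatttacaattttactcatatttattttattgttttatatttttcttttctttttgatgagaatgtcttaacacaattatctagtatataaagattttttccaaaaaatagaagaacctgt
cpSRP54: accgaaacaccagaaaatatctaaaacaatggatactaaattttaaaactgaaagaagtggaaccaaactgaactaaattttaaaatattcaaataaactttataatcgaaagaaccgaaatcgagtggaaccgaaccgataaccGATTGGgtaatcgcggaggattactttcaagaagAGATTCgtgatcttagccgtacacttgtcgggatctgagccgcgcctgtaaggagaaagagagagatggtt

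The window of cpSRP43 held no exact match to either motif and no CACGTG, the G-box bound by several light-signalling factors. Other forms of the GARP core were not searched. The window of cpSRP54 held CCAATC on the opposite strand at bases -105 to -100 from the start and AGATTC at -71 to -66. These matches share no base. AGATTC also lay at -95 to -90 in ALB3 and at -111 to -106 in LTD, and the window of cpFTSY had no match. Thus CCAATC was in 1, AGATTC in 3 and CACGTG in 0 of the 5 windows. Among 27443 promoters of protein-coding genes of the same length, 10.2% held CCAATC, 16.4% AGATTC and 6.49% CACGTG on either strand. These matches are letters in a window and do not show binding. Neither cpSRP43, which fell in both lines, nor cpFTSY, which did not pass, had a match. ALB3, cpSRP54 and LTD had matches and did not pass. Whether a motif bears on the ratios was not tested.

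cpSRP54 (AT5G03940, chromosome 5, 1060106 to 1063425, minus strand, 14 exons) had the most unequal ratios among the members that did not pass. Its deposited log2 ratio was -0.02 in RPGE2-OX (q = 0.98) and -0.41 in glk12 (q = 0.19). The interval was 0.825 to 1.17 of the wild-type level in RPGE2-OX. In glk12 it was 0.592 to 0.956, and the p recovered before adjustment over all genes was 0.020. A fall in glk12 of about the size seen for cpSRP43 is therefore within the interval, although the gene was not called. Its last 49 bases overlap AT5G03930 on the plus strand, whose deposited ratio in glk12 was 2.47 and did not pass (q = 0.69). The kit was stranded, but the sources used here do not state whether counting used strand. Set side by side, cpSRP43 lay 0.87 below cpSRP54 on the log2 scale in RPGE2-OX and 0.16 below it in glk12 (differences of deposited log2 ratios: -0.87 and -0.16). No error can be put on these differences, since both genes were measured in the same libraries and no value per replicate is given.

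The receptor gene cpFTSY (AT2G45770, chromosome 2, 18851088 to 18853741, plus strand, 11 exons) did not pass in either line. Its log2 ratio in the deposited table was -0.05 in RPGE2-OX (q = 0.95), with an interval of 0.801 to 1.17 of the wild-type level. In glk12 it was -0.21 (q = 0.69), with an interval of 0.670 to 1.11. The insertase gene ALB3 (AT2G28800, chromosome 2, 12356321 to 12359568, minus strand, 10 exons, 4 annotated transcripts) had nearly equal ratios in both lines. They were -0.15 in RPGE2-OX (q = 0.68) and -0.17 in glk12 (q = 0.80) in the deposited table. Its intervals were 0.746 to 1.08 of the wild type in RPGE2-OX and 0.694 to 1.14 in glk12. Loss of ALB3 is known to give albino seedlings.

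LTD (AT1G50900, chromosome 1, 18866197 to 18867204, plus strand, 528 coding bases in 2 exons) is listed as GDC1 in the deposited table. The table describes it as an ankyrin repeat family protein. Its deposited log2 ratio was -0.19 in RPGE2-OX (q = 0.55) and -0.09 in glk12 (q = 0.93). The intervals of the log2 ratio ran from -0.45 to 0.07 in RPGE2-OX and from -0.43 to 0.26 in glk12. LTD shares 452 bases with AT1G50910 on the opposite strand and also overlaps the long non-coding locus AT1G07693, so its reads may be mixed with theirs if strand was not used. In the deposited table AT1G50910 had a q of 0.95 in RPGE2-OX and 0.98 in glk12, and AT1G07693 had a q of 0.99 in RPGE2-OX and 0.86 in glk12.

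All 5 ratios lay below 0 in both lines in the deposited table, with a median of -0.15 in RPGE2-OX and -0.21 in glk12. The medians over all tested genes were 0.01 in RPGE2-OX and 0.02 in glk12. Without cpSRP43 the medians of the other 4 were -0.10 in RPGE2-OX and -0.19 in glk12. Since the lines share the wild-type libraries, their signs are not independent. The 3 genes of the thylakoid Tat route also lay below 0 in both lines. In RPGE2-OX, the intervals of all 4 other members lay above that of cpSRP43, by a narrow margin for LTD. In glk12 none of the 4 did, and all 4 overlapped it. Such overlap is not a test between genes or between the lines. The errors differ between the lines. Implied SEs of the 4 were 0.130 to 0.140 on the log2 scale in RPGE2-OX and 0.177 to 0.186 in glk12. The intervals reach down to 0.731 of the wild-type level in RPGE2-OX (LTD) and to 0.592 in glk12 (cpSRP54), so a decrease beyond those bounds is outside them and a smaller one is not.

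**Figure D2:**
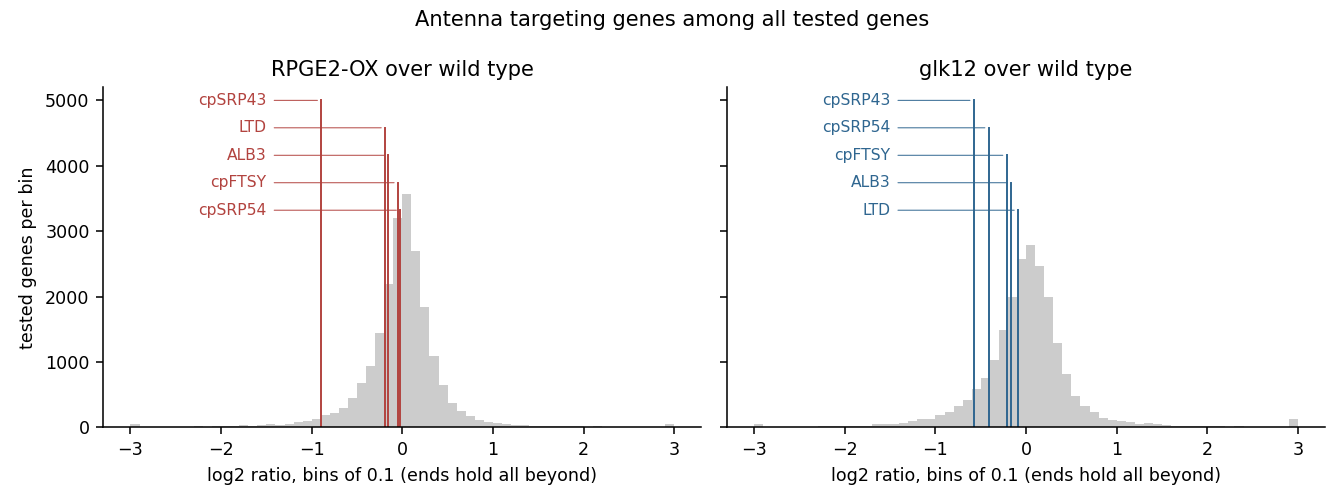
Number of tested genes per bin of log2 ratio in RPGE2-OX over wild type (left) and glk12 over wild type (right), grey bars, with the deposited ratio of each antenna targeting gene as a labelled line. In RPGE2-OX cpSRP43 stands apart at -0.89 and the other members lie in the body of the distribution; in glk12 the members run from -0.58 to -0.09.

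The comparison of RPGE2-OX with glk12 is not in the deposited table. It was made from the difference of both log2 ratios, which share the wild-type libraries, with the implied errors added as variances and the p adjusted over 21380 genes (0.15% of them called). None of the 5 members differed between the lines (adjusted p = 1 for each), and none had an unadjusted p below 0.05. The difference was -0.32 ± 0.29 for cpSRP43 and 0.39 ± 0.22 for cpSRP54 (log2, RPGE2-OX minus glk12 ± implied SE). For cpSRP43 the interval of the difference ran from -0.88 to 0.25, and for cpSRP54 from -0.04 to 0.82. Differences for ALB3, cpFTSY and LTD were 0.01, 0.17 and -0.10, with SEs of 0.23, 0.23 and 0.22. These errors are too large rather than too small, so the lines are not shown to act alike on these genes.

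The genes for the proteins that travel this route fell widely. Of the 21 antenna genes 19 fell in each line, where the share of all tested genes that fell was 3.98% in RPGE2-OX and 3.04% in glk12. The median log2 ratio of the 21 was -2.06 in RPGE2-OX and -1.67 in glk12 in the deposited table. LHCA5 and LHCB7 did not pass in either line. LHCA5 had ratios of -0.18 in RPGE2-OX and -0.14 in glk12, and LHCB7 lay above 0 (0.23 in RPGE2-OX and 0.42 in glk12). LHCB1.4, a major antenna gene of photosystem II, had the largest fall in both lines and LHCB4.3, a minor antenna gene, the smallest that passed. In the authors' deposited table LHCB4.3 was 1.55-fold lower in RPGE2-OX (q = 0.0082), and its log2 ratio in glk12 was -0.92 (q = 0.0035). cpSRP43 fell less than 18 of the 19 called antenna genes in RPGE2-OX and less than all 19 in glk12, and lay above the antenna median by 1.17 on the log2 scale in RPGE2-OX and by 1.09 in glk12. LHCB1 and LHCB2 copies are near-identical, so their single ratios depend on how shared reads were split.

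cpSRP43 is also known to chaperone enzymes of chlorophyll synthesis. The 3 genes listed for this role were picked by name, and all fell in both lines. Among all tested genes, 3.98% were lower in RPGE2-OX and 3.04% in glk12. HEMA1, whose enzyme opens the pathway, had deposited log2 ratios of -1.65 in RPGE2-OX and -1.66 in glk12. GUN4, a regulator of magnesium chelatase, stood at -1.91 in RPGE2-OX and -1.76 in glk12 in the same table. CHLH, a subunit of that chelatase, had deposited ratios of -1.26 in RPGE2-OX and -1.12 in glk12. Each had a q of 0.0018 in RPGE2-OX and 0.0019 in glk12. Their ratios lay further from 0 than that of cpSRP43 in each line.

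Other routes of protein targeting, and the processing peptidases read with them, gave no call in the deposited table. They comprised 24 genes in 6 lists: ALB3 relatives and insertion partners, the thylakoid Sec and Tat routes, thylakoid processing peptidases, the inner envelope Sec2 route and the cytosolic signal recognition particle with its receptor. By the authors' q, 0 of 24 passed in RPGE2-OX and 0 of 24 in glk12. Of all tested genes, 6.55% were called in RPGE2-OX and 5.67% in glk12. These 24 genes are too few to set 0 calls apart from those shares. At an unadjusted p below 0.05 there was 1 in RPGE2-OX, OXA1L, and 1 in glk12, the processing peptidase gene PLSP2B, both with ratios above 0. The median log2 ratio of the 24 was 0.05 in RPGE2-OX and 0.10 in glk12. The Tat route, which carries folded proteins into the thylakoid lumen, had medians of -0.20 in RPGE2-OX and -0.40 in glk12 over 3 genes. The cytosolic particle, which serves the endoplasmic reticulum, had medians of -0.07 in RPGE2-OX and 0.13 in glk12 over 7 genes. AT2G24020 and AT4G38490 entered these lists under names that neither the deposited table nor RefSeq gives.

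Upstream of LTD, genes of the envelope import machinery had ratios above 0 for 9 of 10 genes in each line. Of the 10 genes, 3 rose in RPGE2-OX (2.57% of all tested genes rose there) and none in glk12 (2.63%), with medians of 0.26 in RPGE2-OX and 0.25 in glk12. The receptor gene TOC33 was 1.41-fold higher in RPGE2-OX (q = 0.0070) in the deposited table. TIC40 and TIC110, parts of the inner envelope translocon, were 1.34-fold (q = 0.023) and 1.33-fold (q = 0.034) higher in RPGE2-OX there. In glk12 the deposited log2 ratios of TOC33, TIC40 and TIC110 were 0.26, 0.42 and 0.39, none past the threshold, and 2 of the 10 genes had an unadjusted p below 0.05. For TIC40 the ratios of both lines were equal to 2 decimals (0.42), so the call in RPGE2-OX alone does not show a difference between the lines.

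**Figure D3:**
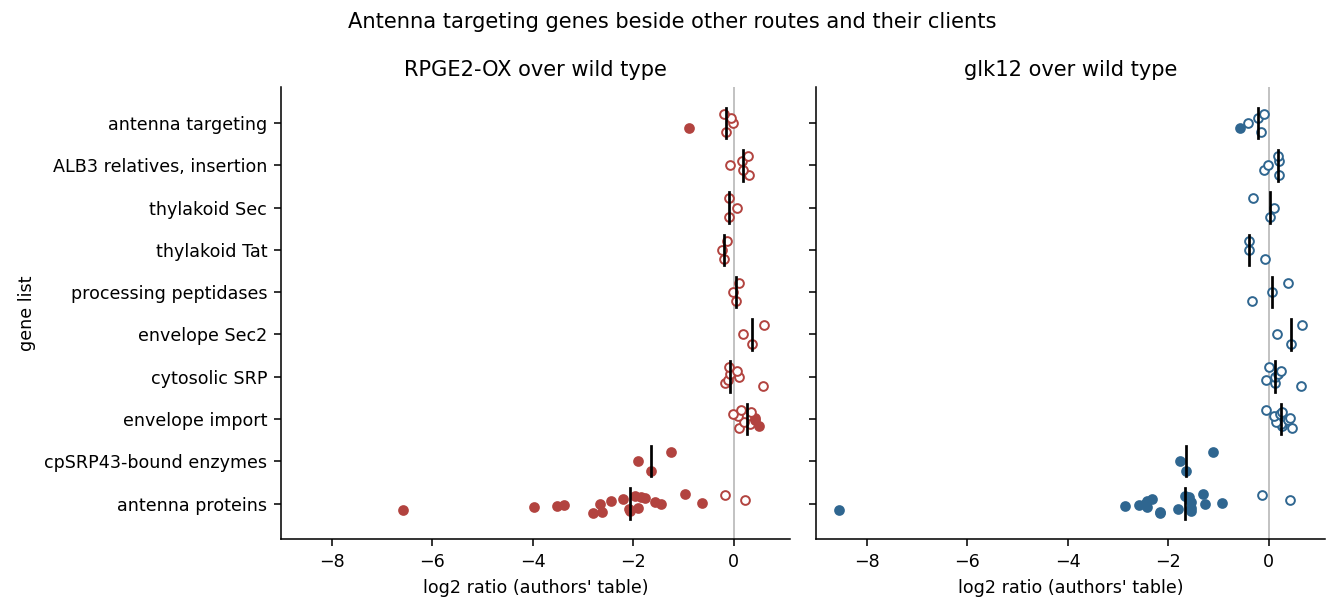
Log2 ratio of every gene in the antenna targeting list and in 9 related lists, in RPGE2-OX over wild type (left) and glk12 over wild type (right). Dots are genes, filled where q is below 0.05, and black bars are list medians. Antenna genes have medians of -2.06 in RPGE2-OX and -1.67 in glk12, while targeting genes have medians of -0.15 in RPGE2-OX and -0.21 in glk12.

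The label of glk12 was checked on its targeted genes. GLK1 was 6.22-fold lower and GLK2 2.65-fold lower in glk12 in the deposited table (q = 0.0019 for both). In RPGE2-OX the same table had GLK1 1.37-fold higher (q = 0.013) and GLK2 1.32-fold higher (q = 0.038), which does not check that label. The label of RPGE2-OX was not checked here, since the table names no locus as RPGE2. Of 10 reference genes 0 passed in RPGE2-OX and 0 in glk12. At an unadjusted p below 0.05 there were 0 in RPGE2-OX and 1 in glk12. Markers of roots and stomata were also read. Of all tested genes, 3.98% fell in RPGE2-OX and 3.04% in glk12. Of 6 root markers 3 fell in each line, PRP3, RCI3 and COBL9 in RPGE2-OX and EXPA18, RCI3 and COBL9 in glk12. The root list medians were -0.58 in RPGE2-OX and -0.77 in glk12. Of 7 guard cell and stomatal markers KAT1 alone fell in each line, with deposited log2 ratios of -0.64 in RPGE2-OX and -0.82 in glk12. The medians of those 7 were -0.05 in RPGE2-OX and -0.10 in glk12, with 2 of 7 ratios above 0 in each line. The part of these cell types in the fall of cpSRP43 was not tested. In whole seedlings, fewer cells of a type and less RNA per cell cannot be told apart.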

How the data were processed

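Whole-seedling RNA was measured in 3 libraries each of RPGE2-OX, glk12 and the wild type. Per the labels' protocols, stranded Illumina libraries were made from 1 µg of RNA. The submitters' processing notes name CASAVA 1.8.2, TopHat, Cufflinks, Cuffdiff and TAIR10 without roles. Settings, and how replicates were combined, are not given in those sources. The file analysed was the authors' table of log2 ratios and q values, per the file headers. The q values (adjusted p-values) were computed and deposited by the authors.

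A q of 1 was taken as untested. Infinite ratios, stored as text, were decoded by sign (1294 in both columns, 0 of opposite sign). The planned limma fit on replicate values could not be made, so the authors' calls were used. Raw p-values came from inverting the Benjamini-Hochberg adjustment. The implied SE is the size of the ratio divided by that p's normal quantile. At the lowest p, 5e-05, it is an upper limit. The recovery of p and the difference test were run on simulated ratios, drawn independently for each line and so without the shared wild type. The implied SE was not scored on its own. Motifs were read in RefSeq TAIR10.1, which also gives all coordinates. The deposited table has none. Alternatives were q limits of 0.01 and 0.10, a 2-fold minimum, all finite rows as tested, centring, other errors for the difference and a 300-base promoter window. Python 3.11.15, pandas 2.3.3 and scipy 1.17.1 were used.

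The members and lists were chosen with earlier results of these data known. Named were all 5 members, GLK1, GLK2, each called gene of lists with at most 10 genes, the largest and smallest called changes of the antenna list, and the 2 genes nearest to each member by both ratios. OXA1L, PLSP2B and the overlapping loci were named after their values were seen.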

Additional observations from a re-analysis of the deposited data

How the results depend on the processing

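The q limits, the 2-fold minimum and the choice of tested rows leave each ratio as deposited, so they bear on calls and not on direction. The call of cpSRP43 at -0.89 in RPGE2-OX and -0.58 in glk12 was lost with a 2-fold minimum, which left 0 members called in each line, and in glk12 (q = 0.035) also at a q limit of 0.01, which left 0. Calls of the other members stayed on their side of the threshold under all alternatives, as did the 5 differences between the lines. Centring shifted all ratios of a line alike, by at most 0.05 (log2), too little to turn a ratio of the size of that of cpSRP43. Of 208 list counts recomputed, 10 moved by over 1.5 times, among them the import genes that rose in RPGE2-OX, 1 at a q limit of 0.01 and 0 with a 2-fold minimum. With other errors, 80 or 0 genes of all differed between the lines, against 32. No paired analysis was possible because the table holds no value per replicate, and leaving out replicates was not run for the same reason. Depth is unknown, so no detection limit can be given.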

Other observations

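The genes nearest to each member in the pair of deposited log2 ratios were looked up among 21380 genes, over 2 comparisons that share the wild type. Nearest to cpSRP43 (-0.89 in RPGE2-OX and -0.58 in glk12) were RLP49 (AT4G13900), a receptor-like protein gene at a distance of 0.013, and AT3G52526 at 0.015. In the authors' deposited table RLP49 passed in RPGE2-OX (q = 0.0018) and not in glk12 (q = 0.14), and AT3G52526 passed in neither line. Nearest to cpSRP54 were CIB1, a cryptochrome-interacting transcription factor gene, at 0.0035 and MUB2, a membrane-anchored ubiquitin-fold protein gene, at 0.0049. Nearest to ALB3 were AT5G48610 and AT3G13910, to cpFTSY ATCRT1 and AT1G03987, and to LTD IGMT5 and AT5G53815. Within a distance of 0.1 lay 40 genes for cpSRP43, 315 for cpSRP54, 967 for LTD, 1009 for cpFTSY and 1054 for ALB3, so with only 2 values per gene such nearness is common near 0.

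The gene neighbours of cpSRP43 were also read. AT2G47440, which ends 566 bases before it on the same strand, had deposited log2 ratios of -0.36 in RPGE2-OX (q = 0.065) and -0.28 in glk12 (q = 0.46). MYB12, a flavonol regulator gene that starts 1938 bases after it, had ratios of -0.16 in RPGE2-OX (q = 0.91) and 0.12 in glk12 (q = 0.96) in the deposited table. Neither neighbour passed in either line.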
